A study of Homo sapiens with 2 samples.

Results

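The 52 genes described here encode complement and coagulation proteins: 13 start the complement cascade, 7 build its terminal complex, 7 regulate it, 20 take part in coagulation and 5 in fibrinolysis. They were chosen by name, through the probe sets of the array whose annotation names a single gene, and 51 of the 52 had a value, on 90 probe sets, out of 19775 genes measured. For VTN, which encodes vitronectin, an inhibitor of the terminal complex, both probe sets also name SEBOX and gave no gene value. The study compared Huh7 cells, an established human hepatocellular carcinoma line, stably transduced with a lentivirus carrying either a non-target control hairpin or a hairpin against CD24, a GPI-anchored surface glycoprotein. Both cultures thus carry a lentiviral hairpin, and each was measured on 1 Affymetrix array of biotin-labelled total RNA. The labels give no untransduced culture, no further hairpin and no time after transduction, and say nothing on separate cultures or clones.

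Complement is a chain of plasma proteases that ends in a pore on the target membrane. It can be started by C1 on antibody (classical), by mannose-binding lectin on sugars (lectin) or by spontaneous turnover of C3 (alternative), and all routes meet at C3. Coagulation is a parallel chain of vitamin K-dependent and other proteases that ends in a fibrin clot, which plasmin, made from plasminogen, dissolves. Hepatocytes secrete most of these plasma proteins, whereas C1q comes mainly from macrophages, von Willebrand factor and thrombomodulin from endothelium, and properdin from leukocytes.

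Each value below is a log2 difference, CD24 shRNA minus control, averaged over the probe sets of a gene. The ± beside it is the SD over those probe sets (n, their number). It describes how far probe sets on the same 2 arrays agree, and is not the error of the difference between the cultures. The deposited table centres every probe set on its 2 arrays, so a probe set has a value and its exact opposite, and the level of a transcript is not in the table. The log2 base follows from the RMA named in the submitters' processing notes and could not be checked from the file. With 1 array per group no test exists: no difference has a replicate check, and the folds compare 2 cultures. For a gene with 1 probe set, the pooled SD between probe sets of a gene, 0.27 over 10523 genes, is the only measure of spread. Neither kind of SD covers cultures or arrays. In bulk RNA, fewer cells making a transcript and less transcript per cell cannot be told apart. CD24 itself lay at a mean of 0.68 in the control and -0.68 in the CD24 shRNA array, a difference of -1.37 ± 0.38 (SD, n = 6 probe sets), or 2.58-fold lower.

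Of the 51 measured members, 4 were at least 2-fold lower in the CD24 shRNA array: the terminal components C8B and C8A, the central component C3 and plasminogen, PLG. That is 7.84% of them, against 0.485% of all genes measured. Another 2 were at least 2-fold higher, 3.92% against 0.632% of all genes: the complement regulator CD55 and the protease inhibitor TFPI2. At 1.5-fold, 11 members were lower (21.6%, against 2.38% of all genes), adding C1R, CPB2, MBL2, F13B, TFPI, F2 and CFI, while the higher members stayed at 2 (against 2.63% of all genes). Below 0 lay 37 members, or 72.5%, against 47.5% of all genes; 13 lay above 0 and F9 was equal on both arrays. The median of the members was -0.23, from -0.39 to -0.15 over the alternative settings, and that of all genes was 0. The remaining 38 members lay within 1.5-fold.

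**Figure D1:**
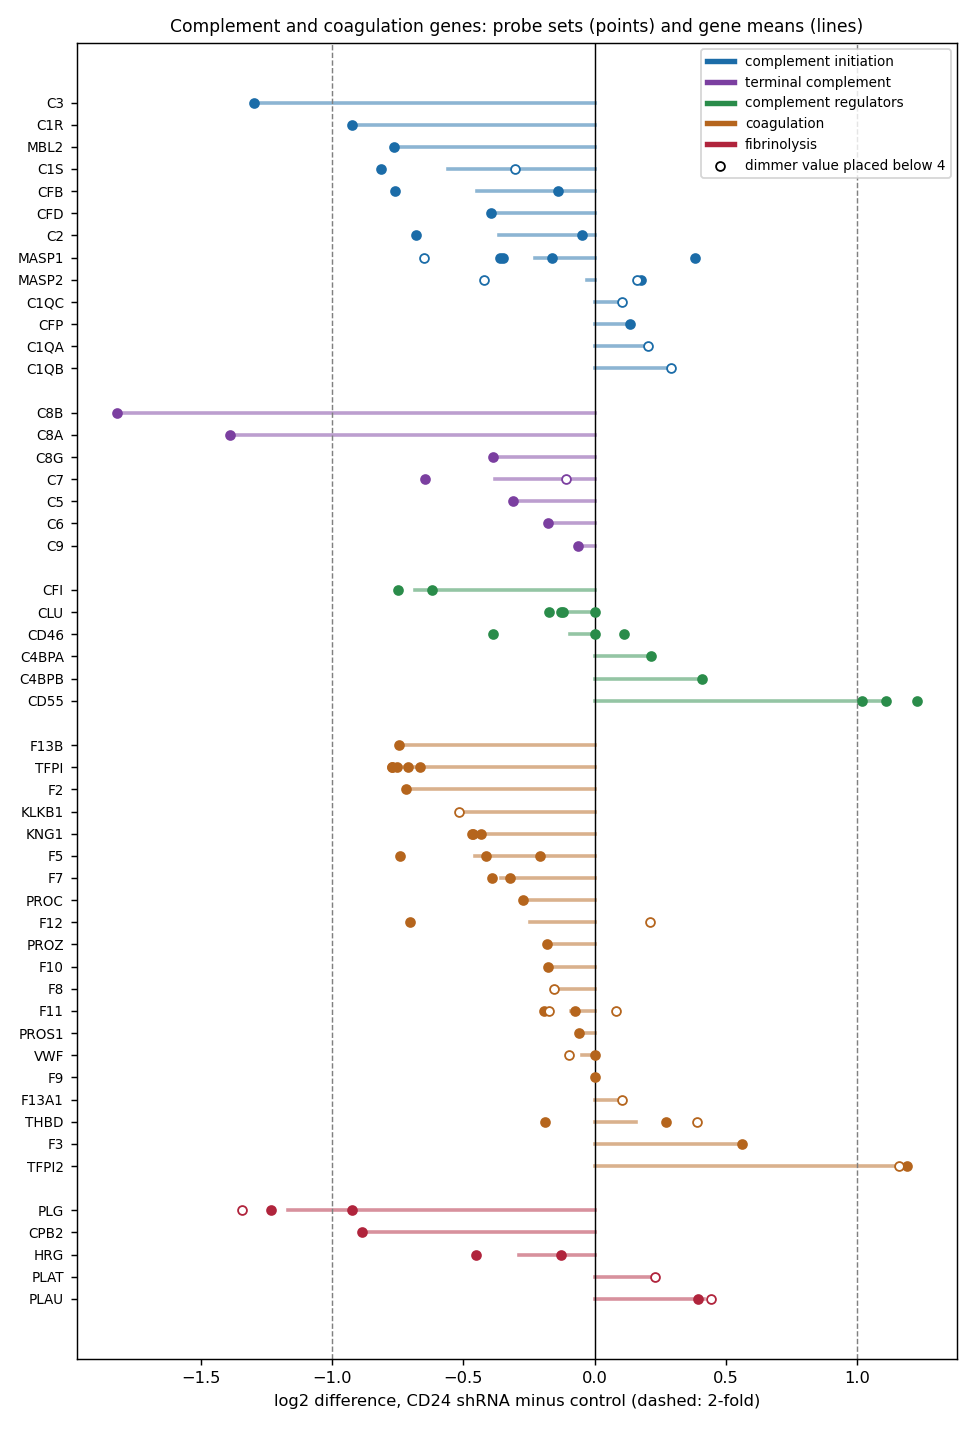
Log2 difference (CD24 shRNA minus control) of every measured member, by group; points are probe sets, lines run from 0 to the gene's mean, and open points are probe sets whose dimmer value is placed below 4 on the log2 scale. C8B, C8A, C3 and PLG lie past the dashed 2-fold line on the left, and CD55 and TFPI2 past that on the right.

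The promoters of 5 of these 6 genes, from RefSeq (GRCh38.p14), are shown because they belong to the members with the largest differences; C3 has no entry in the table used. Each window runs from 250 bases before the transcription start to 50 after it, in the direction of the gene. Windows were searched on both strands for HNF1 (GTTAATNAT), HNF4 (CAAAGTCCA), C/EBP (TTNNGCAA), STAT (TTCNNNGAA), the TATA box (TATAAA) and the NF-kB motif, and a match is printed in capitals. A match describes letters and is no evidence of binding, and no printed window holds more than 1. C8B and C8A are neighbours on chromosome 1, with no other protein-coding gene between them, and neither window holds any of the 6 motifs.
C8B, chr1:56965966-56966265, minus strand: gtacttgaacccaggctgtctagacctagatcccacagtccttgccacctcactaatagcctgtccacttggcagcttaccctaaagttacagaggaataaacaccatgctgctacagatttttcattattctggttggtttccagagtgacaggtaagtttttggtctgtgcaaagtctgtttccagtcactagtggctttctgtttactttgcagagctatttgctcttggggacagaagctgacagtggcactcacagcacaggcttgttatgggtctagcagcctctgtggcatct
C8A, chr1:56854547-56854846, plus strand: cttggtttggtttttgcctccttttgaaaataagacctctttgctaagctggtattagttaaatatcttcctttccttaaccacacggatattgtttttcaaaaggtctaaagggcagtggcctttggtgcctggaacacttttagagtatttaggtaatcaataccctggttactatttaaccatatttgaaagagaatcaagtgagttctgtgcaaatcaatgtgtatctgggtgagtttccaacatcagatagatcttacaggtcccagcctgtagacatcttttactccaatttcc
The window of PLG holds an HNF1 match at bases 253 to 261, which 0.792% of the 35116 windows in the table share in some place; the table lists 2 starts for PLG, and the window is that of the first.
PLG, chr6:160701943-160702242, plus strand: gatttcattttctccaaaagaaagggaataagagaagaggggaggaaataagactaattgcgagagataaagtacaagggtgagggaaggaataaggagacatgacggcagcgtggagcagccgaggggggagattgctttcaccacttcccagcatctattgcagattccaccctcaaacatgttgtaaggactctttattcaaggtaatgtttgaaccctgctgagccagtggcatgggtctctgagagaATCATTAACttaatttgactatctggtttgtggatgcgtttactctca
CD55 and TFPI2, the 2 genes that were higher, have windows of 65% and 65.3% G and C, against 38% for C8A, 44.3% for PLG and 47% for C8B. These windows were picked by the differences of their genes. The G and C share of other windows was not computed, and a link with direction was not tested. The window of TFPI2 holds an NF-kB match at bases 99 to 108, and that of CD55 holds none of the 6 motifs.
CD55, chr1:207321428-207321727, plus strand: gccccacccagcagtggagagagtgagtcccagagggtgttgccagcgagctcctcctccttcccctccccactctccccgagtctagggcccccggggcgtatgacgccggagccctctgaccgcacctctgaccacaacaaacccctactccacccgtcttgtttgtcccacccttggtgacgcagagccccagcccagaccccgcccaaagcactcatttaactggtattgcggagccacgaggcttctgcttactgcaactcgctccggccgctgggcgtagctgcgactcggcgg
TFPI2, chr7:93890704-93891003, minus strand: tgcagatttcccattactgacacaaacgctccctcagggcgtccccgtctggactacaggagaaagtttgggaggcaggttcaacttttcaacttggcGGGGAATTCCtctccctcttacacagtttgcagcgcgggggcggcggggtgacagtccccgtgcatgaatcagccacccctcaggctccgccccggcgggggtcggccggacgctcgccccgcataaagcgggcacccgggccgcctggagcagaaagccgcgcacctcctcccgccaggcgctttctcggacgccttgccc
Across the 44 members with an entry, the HNF1 motif was present in 3 windows (C4BPA, F13B and PLG; 6.82%) and the HNF4 motif in 2 (F10 and PROZ), against 0.384% of all windows for HNF4. The STAT motif was present in 11 (25%, against 7.66%) and the C/EBP motif in 9 (20.5%, against 10.5%). The TATA box was found in 5 (11.4%, against 11.5%), and the NF-kB motif in 1, against 5.91%. The 2 kinds of share differ in unit: a member counts by 1 window, that of its first listed start. The shares of all windows count every listed start of a gene. Of the HNF1 group, F13B lay at -0.75, PLG at -1.17 and C4BPA at 0.22, the last within the pooled SD of 0.27, and of the HNF4 group both lay at -0.18.

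Among the 13 genes that start complement, 9 lay below 0 and their median was -0.36, within a range of -1.30 to 0.29. The median depended on the probe sets used: it was -0.65 with the largest difference per gene and -0.094 without probe sets named _s_at, _x_at or _a_at, whose probes can match several transcripts. C3, cleaved by every route to give the opsonin C3b, lay at 0.65 in the control and -0.65 in the CD24 shRNA array, a difference of -1.30 on 1 probe set, or 2.46-fold lower. C1R, the protease of the C1 complex that activates C1s, lay at 0.46 and -0.46, 1.90-fold lower on 1 probe set. Its neighbour and substrate C1S lay at -0.56 ± 0.36 (SD, n = 2), with probe sets at -0.82 and -0.30, the latter with its dimmer value placed below 4. C2, the next substrate in the classical route, lay at -0.36 ± 0.45 (SD, n = 2), less than the spread of its own probe sets, which gave -0.68 and -0.05.

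The 3 chains of C1q, the antibody-binding part of C1, did not share the direction of the proteases: C1QA lay at 0.20, C1QB at 0.29 and C1QC at 0.10, each on 1 probe set. All 3 probe sets had their dimmer value placed below 4 on the log2 scale, a placement read from the digits of the file, as applied to 25.6% of all single-gene probe sets and 22.2% of the members' probe sets. For comparison, it held for 8 of 113 ribosomal protein probe sets and 62 of 107 olfactory receptor probe sets. The sign of the C1q differences thus rests on dim probe sets, and of 8 macrophage markers the 7 measured had a median of -0.18, with 5 below 0, LYZ lowest at -1.68, MARCO highest at 0.26 and 3 of 13 probe sets placed below 4; their part in the result was not tested.

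In the lectin route, MBL2, the mannose-binding lectin, lay at -0.77, 1.70-fold lower on 1 probe set. Its proteases differed less: MASP1 lay at -0.23 ± 0.38 (SD, n = 5), with probe sets from -0.65 to 0.38, and MASP2, which cleaves C4 and C2, at -0.03 ± 0.34 (SD, n = 3). Neither mean exceeded the spread of its probe sets. The lowest MASP1 probe set and 2 of the 3 MASP2 probe sets are placed below 4. In the alternative route, CFB, the protease part of the C3 convertase, lay at -0.45 ± 0.44 (SD, n = 2; probe sets at -0.76 and -0.14). CFD, which cleaves factor B, lay at -0.39, and CFP, properdin, which stabilises the convertase, at 0.14, on 1 probe set each. The medians were -0.13 for the classical genes, -0.23 for the lectin genes and -0.42 for C3 with the alternative genes.

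All 7 terminal genes lay below 0, with a median of -0.38, although C9 turns positive when the arrays are scaled on the hybridisation controls, which adds 0.078 to every difference and leaves 6 below 0. Their mean was -0.65, and the median became -1.02 over the 4 genes left without recurring differences (those whose size at least 5 probe sets of the array share at 6 decimals). C8B, the chain of C8 that binds the growing complex, lay at 0.91 in the control and -0.91 in the CD24 shRNA array, 3.53-fold lower and the lowest value among the members. C8A, the chain that inserts into the membrane, lay at 0.69 and -0.69, 2.61-fold lower. Both rest on 1 probe set each, that of C8A of the _s_at kind, and the control array was the higher in both. C8G, the lipocalin chain of the same protein, encoded elsewhere in the genome, lay at -0.39, so the 3 chains of C8 ranged from -1.82 to -0.39.

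The other terminal genes lay closer to 0. C7, which anchors the complex to the membrane, lay at -0.38 ± 0.38 (SD, n = 2), with -0.65 on one probe set and -0.11 on the other, whose dimmer value is placed below 4. C5, source of the anaphylatoxin C5a, lay at -0.31, and C6, which joins C5b, at -0.18. C9, which forms the wall of the pore, lay at -0.06. C6 and C9 lay within the pooled SD between probe sets of 0.27, and C5 just beyond it.

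The 6 regulators measured did not share a direction: 3 lay below 0 and 3 above, with a median of 0.06 that became -0.083 over the 3 genes left without probe sets named _s_at, _x_at or _a_at, and 0.17 with probe sets that name several genes. CD55, or decay-accelerating factor, a GPI-anchored protein like CD24 that dissociates the convertases, had a mean of -0.56 in the control and 0.56 in the CD24 shRNA array. The difference of 1.12 ± 0.11 (SD, n = 3), 2.17-fold higher, came from probe sets at 1.02, 1.11 and 1.23, each higher in the CD24 shRNA array. CFI, the protease that cleaves C3b and C4b, lay at -0.68 ± 0.09 (SD, n = 2), 1.61-fold lower, with means of 0.34 and -0.34. In these 2 genes the difference was several times the spread of their probe sets.

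CD46, the membrane cofactor of factor I, lay at -0.09 ± 0.26 (SD, n = 3), with probe sets at 0.11, 0 and -0.39. C4BPA and C4BPB, the chains of the C4b-binding protein, lay at 0.22 and 0.41 on 1 probe set each. C4BPB, C4BPA and CD55 are direct neighbours on chromosome 1, and CD46 lies beyond them with 3 protein-coding genes between it and CD55. Of these 4, CD55 passed 1.5-fold, C4BPB lay beyond the pooled SD between probe sets and C4BPA within it. CD46 lay within the SD of its own probe sets. CLU, clusterin, which also binds the terminal complex, lay at -0.11 ± 0.07 (SD, n = 4).

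**Figure D2:**
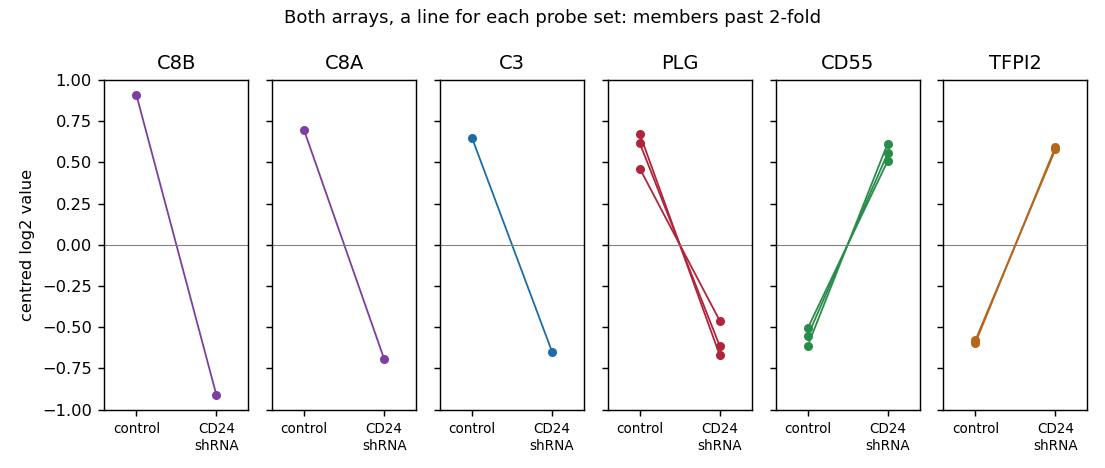
Centred log2 value on the control and CD24 shRNA arrays for the 6 members past 2-fold, with a line for each probe set; the ends of a line are equal and opposite by the centring of the deposited table. C8B spans 0.91 to -0.91 and is the widest, and the 3 probe sets each of PLG and CD55 run the same way.

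Of the 20 coagulation genes, 15 lay below 0, 4 above and F9 was equal on both arrays; their median was -0.18, in a range of -0.75 to 1.17. The median was -0.10 when scaled on the hybridisation controls and -0.27 without recurring differences. Among the procoagulant factors, F13B, the carrier chain of the clot-stabilising factor XIII, lay at -0.75 (0.37 in the control and -0.37 in the CD24 shRNA array, 1.68-fold lower). F2, prothrombin, lay at -0.72 (0.36 and -0.36, 1.65-fold lower). Both rest on 1 probe set and lie beyond the pooled SD between probe sets. The size of the F13B difference is found on 7 probe sets of the array, its own included. F13B thus has no value without recurring differences, whereas F2 keeps its value there. F13A1, the catalytic chain of factor XIII, lay at 0.10 on a probe set placed below 4, so the chains of factor XIII differed in sign.

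F5, the cofactor that speeds prothrombin cleavage, lay at -0.45 ± 0.27 (SD, n = 3), and F7, the protease that tissue factor activates, at -0.36 ± 0.05 (SD, n = 2). Each had all its probe sets below 0. F3, tissue factor, the membrane receptor that starts coagulation, lay at 0.56, 1.47-fold higher on 1 probe set, with -0.28 in the control and 0.28 in the CD24 shRNA array. F3 was thus the highest of the procoagulant genes, on the other side of 0 from its partner F7. F10, which F7 activates and which is its direct neighbour, lay at -0.18, and F8, the cofactor of factor IX, at -0.16 on a probe set placed below 4.

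F9, the haemophilia B protease, gave 0 on both arrays on its 1 probe set; 3273 probe sets of the array did so, and a true equality and a value at the floor cannot be told apart here. F11, the next protease upstream, lay at -0.09 ± 0.13 (SD, n = 4), and VWF, the platelet adhesion protein, at -0.05 ± 0.07 (SD, n = 2). Of the VWF probe sets, 1 is equal on both arrays and the other is placed below 4, as are 2 of the 4 F11 probe sets. The contact genes were all below 0: KLKB1, plasma prekallikrein, at -0.52 on a probe set placed below 4, KNG1, kininogen, at -0.45 ± 0.02 (SD, n = 3), and F12 at -0.25 ± 0.65 (SD, n = 2). Of these, KNG1 had 3 probe sets within -0.47 to -0.43, whereas F12 lay at -0.70 on 1 probe set and at 0.21 on the other. That at 0.21 is placed below 4, and the size of its difference is found on 230 probe sets of the array.

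The anticoagulant genes held the highest value of all members beside one of the lower ones. TFPI2, a Kunitz-type inhibitor of plasmin and other proteases that is largely deposited in the matrix, had means of -0.59 in the control and 0.59 in the CD24 shRNA array. Its difference of 1.17 ± 0.02 (SD, n = 2), 2.25-fold higher, came from probe sets at 1.16 and 1.19, the former placed below 4. TFPI, its paralog and the inhibitor of tissue factor with factor VIIa, lay at -0.73 ± 0.05 (SD, n = 5), 1.66-fold lower, with every probe set between -0.77 and -0.66. The paralogs thus lay on opposite sides of 0, each by many times the spread of its own probe sets.

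PROC, protein C, which inactivates factors Va and VIIIa, lay at -0.27, at the edge of the pooled SD between probe sets. PROS1, its cofactor protein S, lay at -0.06, and PROZ, protein Z, a cofactor for inhibition of factor Xa outside the protein C pathway, at -0.18, both within that SD and on 1 probe set each. THBD, thrombomodulin, which turns thrombin towards protein C, lay at 0.16 ± 0.31 (SD, n = 3), with probe sets at -0.19, 0.27 and 0.39. The last is placed below 4, and the size of the first is found on 248 probe sets of the array. The medians were -0.45 for the contact genes, -0.16 for the procoagulant genes and -0.12 for the anticoagulant genes. For the endothelial products VWF and THBD, 8 endothelial markers had a median of -0.13 in a range of -0.57 to 0.07, with 4 of 14 probe sets placed below 4, and 6 megakaryocyte and platelet markers had a median of 0.02; their part was not tested.

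Of the 5 fibrinolysis genes, 3 lay below 0, and the median was -0.29. It ranged from -0.73 (without the _s_at, _x_at and _a_at probe sets, 2 genes left) to -0.21 (scaled on the hybridisation controls), with -0.59 without probe sets placed below 4 and -0.45 with the largest difference per gene. PLG, plasminogen, the precursor of plasmin, had means of 0.58 in the control and -0.58 in the CD24 shRNA array, a difference of -1.17 ± 0.22 (SD, n = 3) or 2.24-fold lower. Its probe sets lay at -0.92, -1.23 and -1.34, all lower in the CD24 shRNA array, the last of them placed below 4. PLG shares long stretches of sequence with its paralog LPA, and how far these probe sets tell them apart was not tested. CPB2, a carboxypeptidase that slows fibrinolysis by removing plasmin-binding ends of fibrin, lay at 0.44 and -0.44, 1.85-fold lower on 1 probe set. HRG, histidine-rich glycoprotein, which binds plasminogen, lay at -0.29 ± 0.23 (SD, n = 2).

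Both plasminogen activators lay above 0. PLAU, urokinase, lay at 0.42 ± 0.03 (SD, n = 2), 1.33-fold higher, with probe sets at 0.39 and 0.44. The latter is placed below 4, and the size of its difference is found on 5 probe sets of the array. PLAT, tissue plasminogen activator, lay at 0.23 on a probe set placed below 4. The activators and their substrate PLG were therefore on opposite sides of 0, with PLG lower by more than either activator was higher. Of the activators' probe sets, only that of PLAU at 0.39 is not placed below 4.

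**Figure D3:**
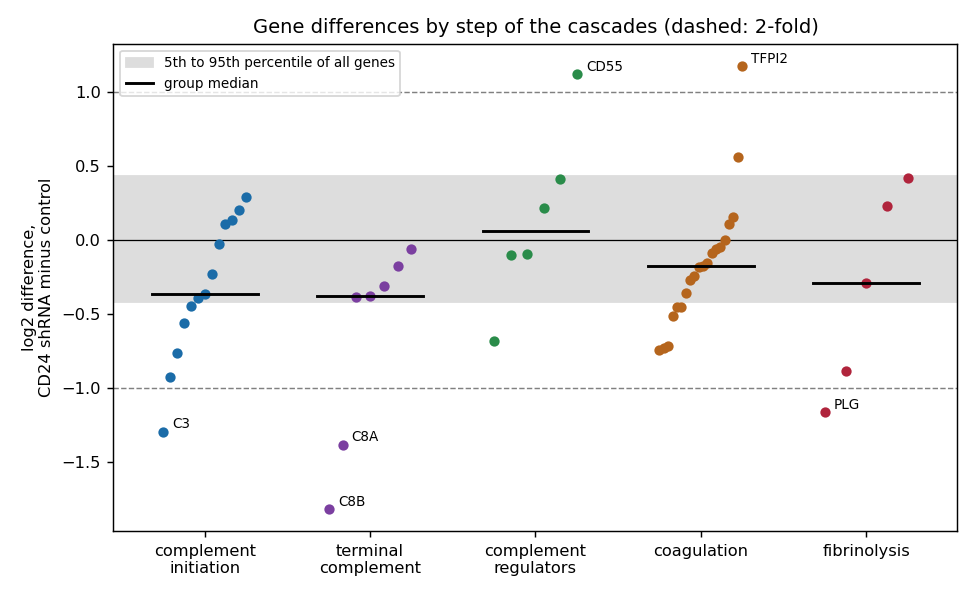
Log2 difference (CD24 shRNA minus control) of each measured member by group, as points, with the group median as a bar and the 5th to 95th percentile of all genes, -0.42 to 0.43, shaded. The medians are -0.36, -0.38, 0.06, -0.18 and -0.29 from left to right, and only the regulators have one above 0, which turned negative without the _s_at, _x_at and _a_at probe sets.

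Where a gene had several probe sets they were compared first. Of the 22 such members, 14 (63.6%) had all probe sets on one side of 0, against 39.9% of all genes with several probe sets, and 13 (59.1%) had a mean larger than their own SD, against 38.8%. Of the 29 members with 1 probe set, 16 lay beyond the pooled SD, 13 lower and 3 higher (C1QB, C4BPB and F3), or more than the 27.9% of all genes with 1 probe set that did. C8B, C8A and C3 have 1 probe set each, and 0.659% of all genes with 1 probe set were at least 2-fold lower. Among the 33 members with no probe set placed below 4, 27 lay below 0 (81.8%, against 47.3% of all such genes) and the median was -0.36. Of these 33, 10 were at least 1.5-fold lower (30.3%, against 3.2% of such genes). A further 18 members had at least 1 placed there, though some, such as PLG and MASP1, also have probe sets not placed there. Of the 18, 10 lay below 0 (55.6%, against 47.5% of all genes measured) and the median was -0.04. A probe set not placed below 4 is not thereby shown to be bright, and one with equal values on both arrays cannot be placed. The 33 members include F9, equal on both arrays, and C9, C8G, C6 and F13B, each with a recurring difference. The counts, shares and medians given here are a description without a test.

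The other genes of the cascades, a list of 45 of which 37 had a value, did not share the members' centre: 15 lay below 0 (40.5%) and the median was 0.06, from 0.0085 to 0.14 over the alternative settings. The list mixes secreted proteins (such as SERPINC1, CFHR2 and FGB) with receptors (such as CR1, ITGAM and F2R) and intracellular proteins (such as GGCX, VKORC1 and LMAN1). It is thus no matched comparison, and whether its secreted proteins differ from the members was not tested. Past 1.5-fold, 2 were lower and 4 higher. SERPINC1, antithrombin, lay at -1.09 ± 0.23 (SD, n = 2), 2.13-fold lower, and SERPING1, the C1 inhibitor, at -0.66, 1.58-fold lower. EPHX1, an epoxide hydrolase, lay at 1.01, F2R, the thrombin receptor, at 0.73 ± 0.77 (SD, n = 2), S100A10, a plasminogen-binding partner of annexin A2, at 0.69 ± 0.25 (SD, n = 2), and FGB, a fibrinogen chain, at 0.59 ± 0.02 (SD, n = 2). The F2R mean is smaller than the spread of its probe sets. Among hepatocyte markers, 7 of 9 had a value, 5 lay below 0, and the median was -0.09 in a range of -0.45 to 0.40; only 1 of 19 probe sets was placed below 4. The hepatocyte markers thus lay nearer 0 than the members did; their part in the members' differences was not tested.

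**Figure D4:**
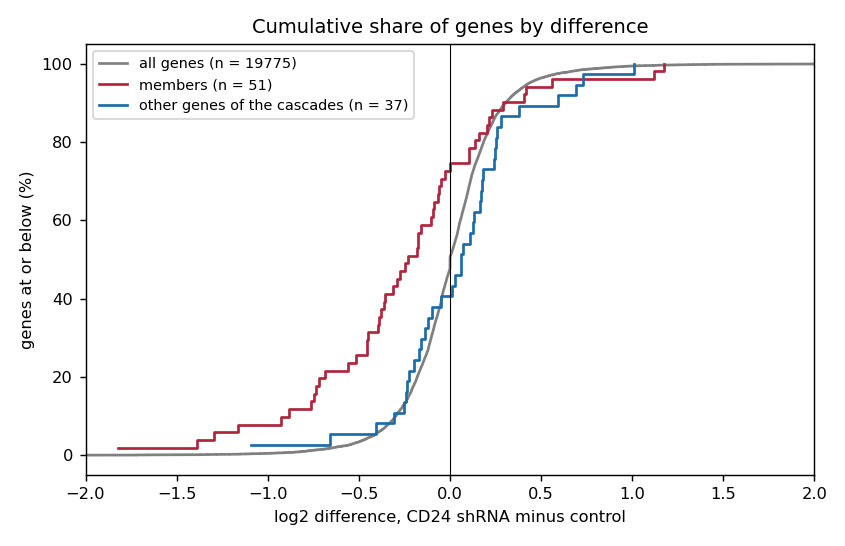
Cumulative share of genes (%) by log2 difference (CD24 shRNA minus control) for all 19775 genes, the 51 measured members and 37 other genes of the same cascades. At 0 the members' curve stands higher than that of all genes, and the curve of the other cascade genes lower.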

How the data were processed

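The deposited values are log2 values made by the authors with RMA (background correction, quantile normalisation and probe summarisation), per the submitters' processing notes; no source used here gives the software version or later steps. The 2 values of a probe set sum to 0 within 1e-06. Control probe sets and those with no symbol or several were left out, which kept 41091 of 54675; genes took the mean over their probe sets of the CD24 shRNA minus control difference. A dimmer value was placed below 4 where the digits were finer than single precision allows above it. Every measured member is named, and other cascade genes where past 1.5-fold. Members and lists were chosen with earlier results of these data known. Having only 2 arrays limits the precision. Alternatives were other ways to combine or leave out probe sets, scaling and thresholds. Python 3.11.15, numpy 2.4.6, pandas 2.3.3 and matplotlib 3.10.9 were used. Averaging over probe sets and the 2-fold cut were tested on simulated differences larger than that of any member. The other thresholds, the medians and the ways to leave out probe sets were not tested in this way.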

Additional observations from a re-analysis of the deposited data

How the results depend on the processing

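With 1 array per group, no replicate could be left out, and no paired analysis was possible because no groups share replicates beyond 1 array each. The count of members at least 2-fold lower, 4, became 11 at 1.5-fold (against 2.38% of all genes) and 1 at 3-fold (against 0.086%). The count higher, 2, stayed at 2 at 1.5-fold (against 2.63% of all genes) and became 0 at 3-fold (against 0.162%). Without probe sets ending in _s_at, _x_at or _a_at, C8A and CD55 have no value. Of the 36 members left, 3 were at least 2-fold lower, against 0.482% of all genes in that setting. In the same setting 1 was at least 2-fold higher, against 0.566%. With the largest difference per gene, the median became -0.65 for initiation, -0.45 for fibrinolysis and -0.39 for all members. Without the _s_at, _x_at and _a_at probe sets it became -0.094 for initiation (8 genes), -0.73 for fibrinolysis (2 genes) and -0.083 for the regulators (3 genes), a change of sign. Without probe sets placed below 4 it became -0.59 for fibrinolysis, and with probe sets that name several genes 0.17 for the regulators. The mean of the terminal genes was -0.65. Without differences shared to 6 decimals by at least 5 probe sets, an alternative chosen after seeing the data, the median became -1.02 for the terminal genes (4 left), -0.59 for fibrinolysis and -0.36 for all members. Where genes were left out, the fewer genes left are part of the change. The largest difference per gene and the mean kept the same genes, and probe sets that name several genes added VTN to the regulators. Other causes were not tested. Scaling on 18 hybridisation control probe sets adds 0.078 to every difference: 33 members then lay below 0, against 34.4% of all genes, and MASP2, C9, VWF and PROS1 crossed 0. Of 373 values of single members, 359 moved by no more than the spread and 14 moved further. Many of the 359 could not move. The median of all genes is 0, so centring on it left all 51 values unchanged. A gene with 1 probe set keeps its value however probe sets are combined, and 0.078 is less than the pooled SD of 0.27. A change of sign was counted only for members past 2-fold, with 0 found, so these counts do not measure robustness.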

Other observations

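Many differences recur to the last digit. Of the 54675 probe sets, 28383 (51.9%) share their absolute difference, at 6 decimals, with at least 4 others; among the members' probe sets 32 of 90 (35.6%) do, among ribosomal protein probe sets 12.4% and among olfactory receptor probe sets 72%. C1QC and F13A1 both have a difference of 0.103785, which 360 probe sets of the array share in size. F9 and 1 probe set each of CD46, CLU and VWF have a difference of 0.

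The probe set that names both PLG and LPA, which was not used for a gene value, lay at -1.16, beside -1.17 for PLG. The 2 probe sets that name VTN and SEBOX lay at 0.19 and 0.16.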
